A study of Homo sapiens with 12 samples.

Results

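Cells given the neural splicing factor SRRM4 were set against cells given LSD1+8a, the splice form of the histone demethylase LSD1 (gene KDM1A) that carries an additional microexon. The comparison rests on 6 of the 12 RNA-seq libraries of the series, 3 SRRM4 and 3 LSD1+8a, chosen by their labels, and on all 13001 genes of the count table. All libraries came from LNCaP (clone FGC), a line of androgen-responsive cells made from a lymph node metastasis of prostate cancer, at passage 8 in RPMI 1640 with serum. The groups were transfected with SRRM4, LSD1+8a, LSD1 or the empty vector by lipofection (Lipofectamine), with new medium after 6 hours, and polyA RNA was sequenced. The labels name neither the promoters of the constructs nor the time of harvest, and every group, the empty vector included, went through the same lipid transfection. Nor do they state that libraries of the same group are separate cultures, and the p-values below therefore rest on a spread between libraries that could be purely technical.

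As background, LSD1 removes methyl groups from histone H3 and works in the CoREST complex, which the repressor REST brings to neuronal genes in cells that are not neurons. SRRM4 is a neural protein that promotes the inclusion of microexons, very short exons used mostly in neurons. One of these is exon 8a of KDM1A. SRRM4 also acts on REST, where inclusion of a neural exon gives a truncated, weaker repressor. The series asked whether SRRM4 makes LSD1+8a in neuroendocrine prostate cancer, a form of the disease with neuronal and secretory granule markers. Setting the splicing factor against its splice product asks which genes differ between cells that received SRRM4 and cells that received LSD1+8a itself.

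KDM1A itself was read at 96.9, 92.0 and 100.1 CPM (counts scaled to a common library size) in the SRRM4 libraries, against 2608, 1983 and 2211 CPM in the LSD1+8a libraries. The level was 539.9 ± 40.5 CPM in LSD1 cells and 94.3 ± 0.828 CPM in empty-vector cells (mean ± SD, n = 3 each). SRRM4 cells thus held KDM1A at the empty-vector level and LSD1+8a cells far above it, as the labels say. The difference was -4.56 on the log2 scale, 23.5-fold lower in SRRM4 cells (SE 0.12, edgeR quasi-likelihood test, adjusted p = 4.18e-08). Gene counts do not separate KDM1A transcripts with and without exon 8a, so its inclusion was not analysed here. The symbol SRRM4 is not among the genes of the table, and the transfected SRRM4 transcript was not analysed here.

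Library totals were 10.88 to 11.49 M counts for SRRM4 and 12.11 to 13.36 M for LSD1+8a, so the SRRM4 libraries were shallower without overlap. Mitochondrially encoded genes took 6.75 ± 0.131% and 6.82 ± 0.259% of counts (SD, n = 3 each). On the first principal component, with 21.4% of the variance, the SRRM4 libraries lay between 14.9 and 17.2 and the other 9 between -8.88 and 1.68. All 10 luminal prostate markers checked were measured, and their summed level was 7240 to 7337 CPM in SRRM4 and 7797 to 8096 CPM in LSD1+8a libraries. KLK3 weighs heavily in that sum, with means of 2660 CPM in SRRM4 and 3035 CPM in LSD1+8a cells. Of the 10 markers 4 were called lower (40%, against 3.17% of all genes), 1 higher (10%, against 4.42%) and 5 were not called. Of the neuroendocrine markers only SYP and ENO2 are listed, and CHGA, CHGB, NCAM1 and INSM1, for example, are not. Of other cell types, 2 of 6 fibroblast markers were listed (COL1A1 and COL3A1, together 23.7 to 32.0 CPM in SRRM4 and 25.8 to 27.8 CPM in LSD1+8a), 1 of 4 leukocyte markers (CD68), 1 of 3 endothelial (VWF), 1 of 3 basal (KRT14) and 2 of 4 neuronal (MAP2 and TUBB3, together 40.7 to 43.8 CPM in SRRM4 and 21.0 to 27.7 CPM in LSD1+8a). VWF was called lower, at 19.7, 21.2 and 18.1 CPM in SRRM4 and 23.9, 24.6 and 23.4 CPM in LSD1+8a libraries (log2 -0.28, edgeR quasi-likelihood test, adjusted p = 0.0183). CD68 had 3.99, 6.89 and 3.85 CPM in SRRM4 and 3.37, 4.12 and 3.12 CPM in LSD1+8a libraries and was not called (0.47, adjusted p = 0.2), nor was KRT14, at 2.60 to 2.76 CPM in SRRM4 and 2.93 to 3.07 CPM in LSD1+8a libraries. The part of these markers in the results was not tested.

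SRRM4 cells exceeded LSD1+8a cells in 574 genes and fell below them in 412 (adjusted p under 0.05), which is 4.42% and 3.17% of the genes tested, or 7.58% in either direction. Most of these differences were small, with a median log2 fold change of 0.24 among the rises and -0.20 among the falls. Beyond 2-fold stood 29 rises, while KDM1A was the only fall of that size. The next largest called fall was POTEJ at -0.87. Called or not, 1653 genes (12.7%) had all 3 SRRM4 libraries above all 3 LSD1+8a libraries in CPM. In 1666 genes (12.8%) all 3 lay below. Against the empty vector, SRRM4 raised 581 genes (4.47%) and lowered 418 (3.22%), while LSD1+8a raised 37 (0.285%) and lowered 8 (0.0615%). These comparisons share the empty-vector libraries. In the third of genes with the highest GC content 8.07% were higher and 2.02% lower in SRRM4 cells, against 1.71% higher and 4.31% lower in the third with the lowest. With trends on GC content and transcript length removed from each library 580 genes were higher and 502 lower, and with all libraries thinned to equal totals 535 were higher and 395 lower.

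**Figure D1:**
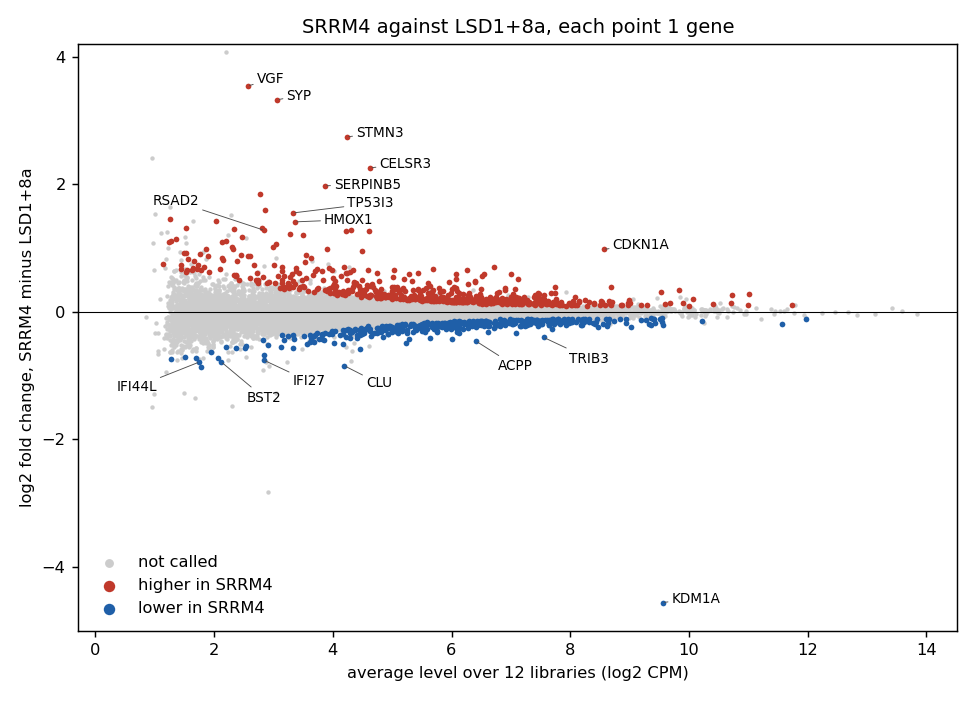
Difference of each gene between SRRM4 and LSD1+8a cells (y axis, log2 fold change) against its average level over the 12 libraries (x axis, log2 CPM). Red points were called higher and blue points lower at an adjusted p under 0.05. KDM1A stands alone at -4.56, the largest called rises are VGF, SYP and STMN3, and 5 genes that were not called lie outside the y range.

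Neuronal genes, many of them REST targets, held the 4 largest called rises. Of 61 listed genes 30 were measured, and 17 of these were higher in SRRM4 cells and none lower, with a median of 0.45, against 4.42% higher and a median of -0.0027 over all genes. One measured member had an unadjusted p under 0.05 in the lower direction. VGF, which encodes a secreted neuropeptide precursor, had 18.9, 20.8 and 18.2 CPM in SRRM4 cells against 1.498, 1.82 and 1.64 CPM in LSD1+8a cells. That is an 11.6-fold rise (log2 3.54, SE 0.16, adjusted p = 1.53e-18). SYP encodes synaptophysin, a synaptic vesicle protein used to diagnose neuroendocrine tumours. It had 27.5, 25.8 and 28.1 CPM in SRRM4 cells, against 2.92, 2.93 and 2.21 CPM in LSD1+8a cells, a 10.0-fold rise (SE 0.13 in log2, adjusted p = 4.19e-20). For both genes every SRRM4 library stood far above every LSD1+8a library. Libraries that do not overlap were a condition for naming the largest rises, so this adds no support.

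STMN3, a stathmin that destabilises microtubules in neurons, had 53.7, 51.9 and 52.0 CPM in SRRM4 cells and 7.56, 8.17 and 7.79 CPM in LSD1+8a cells. The rise was 6.70-fold (log2 2.74, SE 0.08, adjusted p = 3.21e-24). CELSR3, a cadherin that guides axons, had 60.5, 64.1 and 58.0 CPM in SRRM4 cells and 12.9, 12.1 and 13.2 CPM in LSD1+8a cells, a 4.78-fold rise (SE 0.07 in log2, adjusted p = 5.77e-23). Again the groups did not overlap, under the same condition of naming. MAPK8IP2, a JNK scaffold of neurons, averaged 41.9 ± 2.17 CPM in SRRM4 and 17.4 ± 0.113 CPM in LSD1+8a cells (SD, n = 3 each). The largest rises also held BSN, a scaffold of the presynaptic active zone, at 35.4 ± 3.50 and 14.5 ± 0.852 CPM, and DISP2 at 15.1 ± 0.402 and 4.97 ± 1.21 CPM.

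STX1A, the syntaxin of synaptic vesicle fusion, had 12.3, 13.0 and 12.7 CPM in SRRM4 cells and 5.39, 4.92 and 4.92 CPM in LSD1+8a cells (log2 1.32, SE 0.13, adjusted p = 5.48e-09). Further rises in the list, given after their values were seen, were HCN2, a pacemaker channel (1.17), CPLX1, complexin of vesicle fusion (0.98), and KCNH2, a potassium channel (0.80). At the low end the called members reached MAPK8IP1 at 0.30 and SEZ6L2 at 0.12. REST was read at 52.1, 49.2 and 49.9 CPM in SRRM4 cells and 46.0, 50.6 and 50.2 CPM in LSD1+8a cells. These overlapped (log2 0.04, SE 0.06, adjusted p = 0.711), and gene counts do not show its splicing. The CoREST scaffolds RCOR1, RCOR2 and RCOR3, which link REST to LSD1, had log2 fold changes of 0.00, -0.06 and -0.05, with adjusted p of 0.989, 0.928 and 0.713.

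Both groups were also set against the empty vector. VGF differed from the empty vector by 3.33 on the log2 scale in SRRM4 cells and by -0.21 in LSD1+8a cells, with adjusted p of 3.3e-18 and 0.935. SYP gave 3.42 and 0.10 in SRRM4 and LSD1+8a cells, STMN3 2.53 and -0.21, and CELSR3 2.05 and -0.21, all against the same empty-vector libraries. The median of the 30 measured members was 0.38 for SRRM4 and -0.05 for LSD1+8a.

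**Figure D2:**
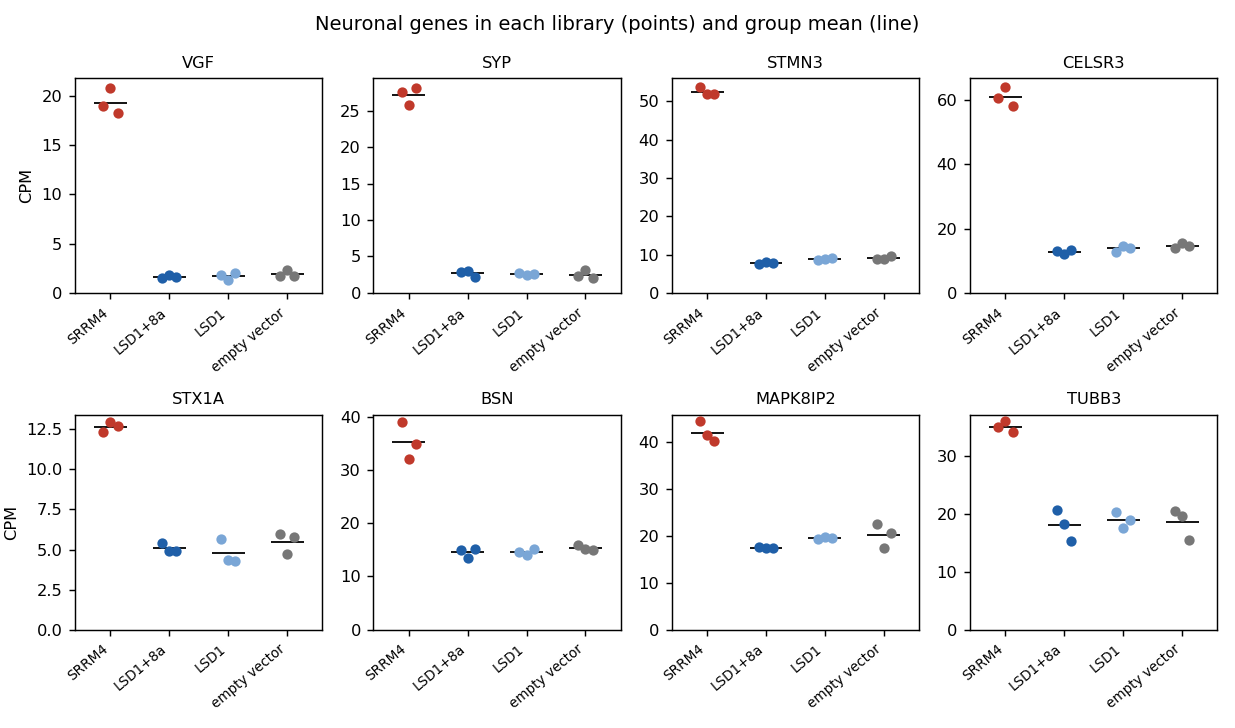
Level of 8 neuronal genes (y axis, CPM) in each library (points, 3 per group), with the group mean as a line, for SRRM4, LSD1+8a, LSD1 and empty-vector cells. In all 8 genes the 3 SRRM4 libraries lie above the other 9.

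Among 37 neuroendocrine markers and secretory granule genes 13 were measured. Of these 6 were higher in SRRM4 cells (46.2%, against 4.42% of all genes) and none lower, with a median of 0.20. One had an unadjusted p under 0.05 in the lower direction. VGF, SYP and STX1A are among the 6 and also stand in the neuronal list. The 6 became 5 without any single SRRM4 library or LSD1+8a library 1. They were 5 in DESeq2 and 4 with limma-trend on log2(TPM + 1). Without SRRM4 library 3, 1 member was called lower. SYT4, a synaptotagmin of dense core vesicles, had 172.9, 169.2 and 165.1 CPM in SRRM4 cells and 101.2, 121.4 and 113.2 CPM in LSD1+8a cells (log2 0.60, SE 0.05, adjusted p = 3.67e-09). CPE, the carboxypeptidase that trims prohormones, averaged 75.7 ± 1.34 CPM in SRRM4 and 65.6 ± 1.76 CPM in LSD1+8a cells, a small rise of 0.20. ONECUT2, a transcription factor linked to lineage plasticity in prostate cancer, had 18.9 ± 0.343 and 14.7 ± 0.772 CPM (log2 0.36, adjusted p = 0.0308). Its call was lost when any SRRM4 library, or LSD1+8a library 1 or 3, was left out, at log2 fold changes of 0.34 to 0.37. ENO2, neuron-specific enolase, ranged from 30.2 to 37.5 CPM in SRRM4 and 23.7 to 32.8 CPM in LSD1+8a cells and overlapped (adjusted p = 0.711).

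Of 39 measured microtubule and axon growth genes 11 were higher (28.2%, against 4.42% of all genes), 1 was lower (EFNA1, at -0.17) and the other 27 had no call. The list's median was 0.05. With limma-trend on log2(TPM + 1) 4 were higher. TUBB3, the tubulin isotype of neurons, had 34.95, 35.9 and 34.2 CPM in SRRM4 cells and 20.7, 18.2 and 15.3 CPM in LSD1+8a cells (log2 0.95, SE 0.09, adjusted p = 1.69e-08). TUBA1A, the main alpha-tubulin of developing neurons, averaged 19.0 ± 0.708 CPM in SRRM4 and 11.95 ± 1.01 CPM in LSD1+8a cells. EFNB1, an ephrin, averaged 16.8 ± 0.487 and 10.8 ± 0.406 CPM, and MAP1B, a microtubule-binding protein of axons, 232.6 ± 2.89 and 188.5 ± 5.27 CPM. STMN3 belongs to this list too. MAP2, the dendritic marker, gave 0.07 and was not called.

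Of 75 measured genes that host SRRM4-regulated microexons 10 were higher and 4 lower, with a median of 0.02 (13.3% and 5.33%, against 4.42% and 3.17% of all genes), and KDM1A, the transfected gene, is among the 4. The count of higher hosts was 6 without SRRM4 library 1 or 2, 5 without LSD1+8a library 3, 6 in DESeq2 and 1 with limma-trend on log2(TPM + 1). The largest rise was SYNJ1, a phosphatase of vesicle recycling, at 0.40, given after its value was seen. SCRIB, a polarity scaffold, averaged 126.4 ± 0.897 CPM in SRRM4 and 102.0 ± 3.18 CPM in LSD1+8a cells (log2 0.31, SE 0.04, adjusted p = 1.82e-06). KIF1A, a kinesin that carries synaptic vesicle precursors, rose by 0.23, and AGRN, which organises the neuromuscular synapse, by 0.20. With trends on GC content and length removed, AGRN gave 0.09 and was not called. KIF1C, a related kinesin, was lower at 178.1 ± 2.08 CPM in SRRM4 and 206.3 ± 15.1 CPM in LSD1+8a cells (-0.21).

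Other neural splicing regulators gave a single call. None of 26 measured members was called higher, against 4.42% of all genes, and 1 had an unadjusted p under 0.05 in that direction. Called lower was 1 member (3.85%, against 3.17% of all genes). That member was ESRP1, an epithelial splicing regulator, with 84.4, 79.0 and 82.6 CPM in SRRM4 cells and 87.7, 93.0 and 96.4 CPM in LSD1+8a cells (log2 -0.17, adjusted p = 0.0181). Its call was lost without SRRM4 library 2 or LSD1+8a library 2 or 3, at -0.14 to -0.16. The LSD1 and CoREST list had 30 measured members, of which 1 was higher (3.33%, against 4.42% of all genes) and 2 lower (6.67%, against 3.17%). MTA2, a subunit of the NuRD deacetylase, was higher (212.8 ± 6.91 CPM in SRRM4 and 176.9 ± 8.33 CPM in LSD1+8a cells, log2 0.27). Lower were KDM1A and ZNF217, a zinc finger partner of CoREST, at 180.9 ± 6.71 and 198.1 ± 2.25 CPM (-0.13). The ZNF217 call was lost without SRRM4 library 1, at -0.10.

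Interferon-stimulated genes, which encode antiviral proteins, split in both directions between SRRM4 and LSD1+8a cells. Many carry in their promoters an interferon-stimulated response element, a pair of GAAA repeats bound by interferon regulatory factors and STAT complexes. The promoters of RSAD2, which was higher in SRRM4 than in LSD1+8a cells, and of 4 genes that were lower are shown. They hold this motif although the difference between these groups had opposite signs. Capitals mark GAAANNGAAA on either strand (overlapping matches merged), in 60-base stretches read in the direction of the gene, with RefSeq sequence and GRCh38.p14 coordinates.
RSAD2, chr2:6877607-6877666, plus strand: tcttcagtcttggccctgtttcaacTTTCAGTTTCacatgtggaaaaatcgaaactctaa
IFI27, chr14:94110616-94110675, plus strand: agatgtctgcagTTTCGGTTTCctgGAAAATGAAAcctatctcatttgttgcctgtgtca
BST2, chr19:17405720-17405779, minus strand: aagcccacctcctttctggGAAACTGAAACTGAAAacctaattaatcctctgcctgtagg
IFI44L, chr1:78620350-78620409, plus strand: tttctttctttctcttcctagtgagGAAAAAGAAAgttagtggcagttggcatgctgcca
IFI6, chr1:27672251-27672310, minus strand: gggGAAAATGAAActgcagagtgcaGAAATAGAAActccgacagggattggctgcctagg
Within 250 bases before the gene start this motif was found in 1061 of 35116 RefSeq promoter windows (3.02%) and in 292 of the 9040 table genes with a window (3.23%). Of the interferon-linked genes measured it was found in 26 of the 45 with a window (57.8%). It was present in all 6 lower members with a window, in the single higher member with one (RSAD2) and in 19 of 38 members that were not called. A match is a string of letters in a window and not a measured binding site.

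Among 35 measured antiviral effectors 6 were higher in SRRM4 than in LSD1+8a cells (17.1%, against 4.42% of all genes). Lower were 5 (14.3%, against 3.17%), and the median was -0.01. The 6 higher became 2 without SRRM4 library 1 or LSD1+8a library 2, 3 without SRRM4 library 2 or LSD1+8a library 3, 3 in DESeq2 and 1 with limma-trend on log2(TPM + 1). The 5 lower became 3 without SRRM4 library 3 or LSD1+8a library 2, in both of those tools, and with libraries thinned to equal totals. RSAD2, which encodes viperin, had 16.8, 17.7 and 16.9 CPM in SRRM4 cells and 8.09, 5.39 and 7.71 CPM in LSD1+8a cells (log2 1.28, SE 0.13, adjusted p = 3.86e-09). Its groups did not overlap. PML, the scaffold of nuclear bodies, averaged 41.7 ± 2.57 CPM in SRRM4 and 31.8 ± 1.94 CPM in LSD1+8a cells (0.39). The PML call was lost in both limma-trend fits on TPM. Also higher, and given after their values were seen, were TRIM22 (0.63), GBP2 (0.49), IFIT2 (0.41) and APOL2 (0.25), of which GBP2 overlapped between the groups.

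IFI27 had 7.98, 8.18 and 6.32 CPM in SRRM4 cells and 13.6, 11.4 and 13.0 CPM in LSD1+8a cells (log2 -0.76, SE 0.12, adjusted p = 7.43e-05). BST2, tetherin, which holds budding virus at the cell surface, had 3.56, 4.503 and 4.58 CPM in SRRM4 cells and 8.09, 6.98 and 6.64 CPM in LSD1+8a cells (-0.78, SE 0.17, adjusted p = 0.0018). IFI6 had 69.0, 72.0 and 70.6 CPM in SRRM4 cells and 98.0, 86.4 and 98.9 CPM in LSD1+8a cells (-0.42, SE 0.07, adjusted p = 0.00115). In these 3 genes every SRRM4 library stood below every LSD1+8a library. IFI44L had 3.99, 3.68 and 3.75 CPM in SRRM4 cells and 6.44, 6.98 and 6.32 CPM in LSD1+8a cells (-0.79, adjusted p = 0.0166). The IFI44L call was lost in DESeq2 and without SRRM4 library 2 or 3 or LSD1+8a library 2, at -0.74 to -0.79. It was also lost after thinning to equal totals and in both limma-trend fits on TPM.

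Against the empty vector, the 5 genes whose promoters are shown were called higher in both transfections. RSAD2 stood 2.95 above the empty vector on the log2 scale in SRRM4 cells and 1.67 above it in LSD1+8a cells. IFI27 stood 1.48 above in SRRM4 and 2.24 above in LSD1+8a cells, IFI44L 2.002 and 2.79, BST2 0.82 and 1.61, and IFI6 0.98 and 1.40. Empty-vector cells themselves held 2.21 ± 0.277 CPM of RSAD2 and 2.68 ± 0.214 CPM of IFI27 (SD, n = 3). These 5 genes thus rose in both SRRM4 and LSD1+8a cells, by unequal amounts. PML gave 0.43 against the empty vector in SRRM4 and 0.04 in LSD1+8a cells, and GBP2 0.52 and 0.02.

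**Figure D3:**
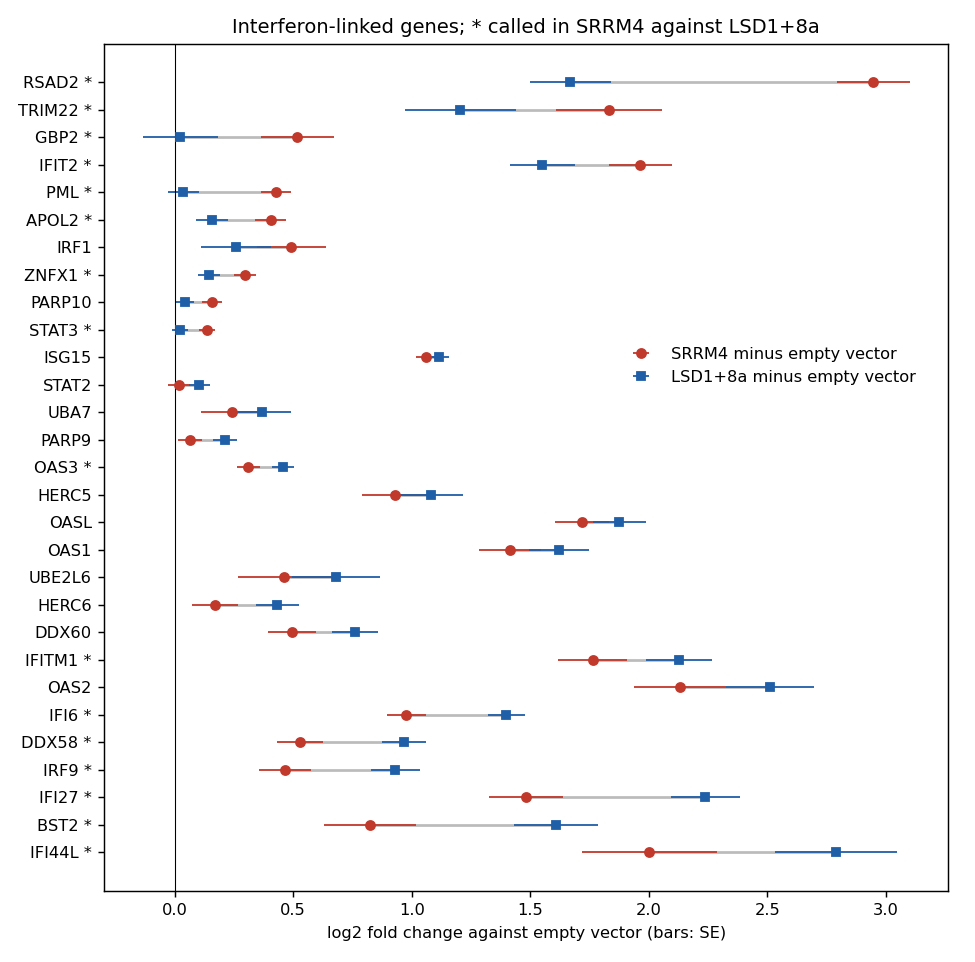
Interferon-linked genes as log2 fold change against the empty vector (x axis, bars are SE), for SRRM4 (red circles) and LSD1+8a (blue squares), drawn for 29 genes that were called or named by rule in the 5 interferon-linked lists. Stars mark the 16 genes called between SRRM4 and LSD1+8a, with RSAD2 at the top (2.95 and 1.67) and IFI44L at the bottom (2.002 and 2.79).

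The remaining interferon lists gave few calls. In the OAS family, which senses double-stranded RNA, only OAS3 of 5 measured members was called (20% lower, against 3.17% of all genes). OAS3 averaged 97.6 ± 5.93 CPM in SRRM4 and 108.0 ± 2.12 CPM in LSD1+8a cells (log2 -0.15, adjusted p = 0.042). That call was lost in DESeq2 and when any library but SRRM4 library 2 was left out, at -0.10 to -0.16. Thinning to equal totals, a replicate block and both limma-trend fits on TPM ended it too. OASL averaged 19.7 ± 0.725 and 21.9 ± 1.71 CPM, and OAS1 11.8 ± 0.745 and 13.7 ± 0.534 CPM, both without a call. No member of the ISG15 pathway was called out of 6, against 7.58% of all genes, and 1 had an unadjusted p under 0.05. ISG15, the ubiquitin-like modifier, had 102.0, 103.7 and 103.7 CPM in SRRM4 cells and 111.6, 105.2 and 103.9 CPM in LSD1+8a cells (log2 -0.05, SE 0.04, adjusted p = 0.499).

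Of 15 nucleic acid sensors 1 was higher and 1 lower (6.67% each, against 4.42% and 3.17% of all genes). DDX58, which encodes RIG-I, was lower, at 15.2, 14.3 and 15.5 CPM in SRRM4 cells and 21.6, 19.4 and 19.9 CPM in LSD1+8a cells (-0.44, SE 0.09, adjusted p = 0.00112). ZNFX1, a helicase that senses RNA at mitochondria, was called higher at 0.15, and lost its call without SRRM4 library 1 or 2 or LSD1+8a library 1 or 2, at 0.11 to 0.15. Of 16 interferon signalling genes 1 was higher and 1 lower (6.25% each, against 4.42% and 3.17% of all genes). IRF9, the DNA-binding part of the complex that drives interferon-stimulated genes, was lower, at 11.5, 11.4 and 14.7 CPM in SRRM4 cells and 17.4, 17.1 and 17.2 CPM in LSD1+8a cells (-0.47, SE 0.10, adjusted p = 0.00225). Its partner STAT2 was not called (-0.09, adjusted p = 0.269). STAT3 was called higher at 0.11, with overlapping groups. It lost its call in DESeq2, with upper-quartile factors, after thinning and with a replicate block. The same held without SRRM4 library 2 or 3 or LSD1+8a library 2 or 3. In both limma-trend fits on TPM, DDX58, ZNFX1, IRF9 and STAT3 lost their calls.

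Of 19 measured genes of NF-kB signalling 8 were higher (42.1%, against 4.42% of all genes) and 1 lower (5.26%, against 3.17%), with a median of 0.22. The 8 became 3 without SRRM4 library 1 and 4 without SRRM4 library 2 or 3 or LSD1+8a library 2 or 3. They were 3 in DESeq2, 2 with limma-trend on log2(TPM + 1), and 5 after thinning or removal of GC and length trends. RELB, a subunit of the non-canonical pathway, had 5.90, 5.88 and 6.78 CPM in SRRM4 cells and 3.22, 3.33 and 3.77 CPM in LSD1+8a cells (log2 0.85, SE 0.16, adjusted p = 0.000589). NFKB2, its partner subunit, had 81.0, 82.0 and 81.9 CPM in SRRM4 cells and 65.5, 57.1 and 65.0 CPM in LSD1+8a cells (0.38, SE 0.05, adjusted p = 7.41e-07). BIRC3, an inhibitor of apoptosis, averaged 15.7 ± 2.69 and 10.1 ± 0.960 CPM. ZC3H12A, which degrades inflammatory mRNAs, was lower at 50.5 ± 2.84 CPM in SRRM4 and 59.6 ± 1.96 CPM in LSD1+8a cells (-0.24).

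Among 19 measured genes of MHC class I antigen presentation, 3 were higher (15.8%, against 4.42% of all genes) and 1 lower (5.26%, against 3.17%). With limma-trend on log2(TPM + 1) none was called in either direction. NLRC5, the transactivator of class I genes, had 17.3, 16.4 and 15.5 CPM in SRRM4 cells and 12.5, 11.3 and 10.3 CPM in LSD1+8a cells (log2 0.52, SE 0.11, adjusted p = 0.00193). TAP1, a subunit of the peptide transporter, rose by 0.29, and TAPBP, tapasin, by 0.19. ERAP1, the aminopeptidase that trims peptides, was lower at 27.4 ± 0.419 CPM in SRRM4 and 32.6 ± 0.450 CPM in LSD1+8a cells (-0.25). Without SRRM4 library 2 ERAP1 gave -0.24 and was not called. In DESeq2 ERAP1 was not called either.

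Of 46 measured p53 targets 24 were higher (52.2%, against 4.42% of all genes) and 1 lower (SESN1, at -0.14), with a median of 0.24. That is the highest number of called rises among the 30 lists, while the share was higher in the neuronal list, at 56.7%. With limma-trend on log2(TPM + 1) 14 were higher. The single lower call was lost without SRRM4 library 2 or 3 or LSD1+8a library 2 or 3, in DESeq2 and after thinning. CDKN1A, the cell cycle inhibitor p21, had 582.7, 617.9 and 608.4 CPM in SRRM4 cells and 302.4, 304.1 and 309.5 CPM in LSD1+8a cells (log2 0.98, SE 0.03, adjusted p = 5.77e-23). SERPINB5, maspin, had 34.1, 34.2 and 34.1 CPM in SRRM4 cells and 8.69, 8.49 and 8.78 CPM in LSD1+8a cells, a 3.94-fold rise (SE 0.09 in log2, adjusted p = 1.37e-18). TP53I3, an oxidoreductase, had 19.7, 21.8 and 19.0 CPM in SRRM4 cells and 5.92, 7.69 and 7.05 CPM in LSD1+8a cells (1.55, SE 0.11, adjusted p = 1.29e-12). In these 3 genes the groups were far apart.

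FDXR, ferredoxin reductase, averaged 72.2 ± 1.78 CPM in SRRM4 and 45.2 ± 1.43 CPM in LSD1+8a cells, and BTG2, an antiproliferative factor, 124.7 ± 5.30 and 82.8 ± 1.26 CPM (SD, n = 3 each). Given after their values were seen, MDM2, the ubiquitin ligase of p53, rose by 0.52, PPM1D, a p53 phosphatase, by 0.61, GADD45A by 0.65, and the apoptosis genes BBC3 and BAX by 0.46 and 0.27. Against the empty vector CDKN1A gave 0.998 in SRRM4 cells (adjusted p = 4.89e-23) and 0.02 in LSD1+8a cells (adjusted p = 0.968). The list's median against the empty vector was 0.26 in SRRM4 and 0.00 in LSD1+8a cells.

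Of 44 measured androgen-induced genes 14 were lower (31.8%, against 3.17% of all genes) and 3 higher (6.82%, against 4.42%), with a median of -0.10. With limma-trend on log2(TPM + 1) 6 were lower and none higher. ACPP, prostatic acid phosphatase, had 70.7, 67.3 and 66.2 CPM in SRRM4 cells and 96.9, 93.2 and 91.0 CPM in LSD1+8a cells (log2 -0.46, SE 0.04, adjusted p = 2.26e-09). KLK3, prostate-specific antigen, had 2683, 2683 and 2615 CPM in SRRM4 cells and 2960, 3119 and 3025 CPM in LSD1+8a cells (-0.19, SE 0.03, adjusted p = 5.54e-05). TSC22D3, a steroid-induced leucine zipper protein, had 76.5, 75.2 and 82.9 CPM in SRRM4 cells and 98.1, 95.6 and 99.6 CPM in LSD1+8a cells (-0.32, SE 0.05, adjusted p = 9.31e-06). No SRRM4 library reached an LSD1+8a library in these genes, as in 12.8% of all genes.

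TMPRSS2, a serine protease of the prostate, averaged 588.8 ± 9.53 CPM in SRRM4 and 670.5 ± 32.2 CPM in LSD1+8a cells (-0.19), and C1orf116 223.5 ± 7.94 and 256.7 ± 2.51 CPM (-0.20). The 3 higher members, given after their values were seen, were ZNF385B (0.93), TRPM8, a cold-sensing channel (0.33), and KCNN2 (0.21). Of 13 measured prostate lineage factors 3 were lower (23.1%, against 3.17% of all genes), among them CREB3L4 (-0.20) and ETV1 (-0.18). ONECUT2 was higher (7.69%, against 4.42%). FOXA1, a pioneer factor of the prostate lineage, averaged 357.3 ± 6.53 and 383.6 ± 10.3 CPM and fell just short of a call (-0.10, adjusted p = 0.057). Against the empty vector ACPP gave -0.45 in SRRM4 and 0.01 in LSD1+8a cells.

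**Figure D4:**
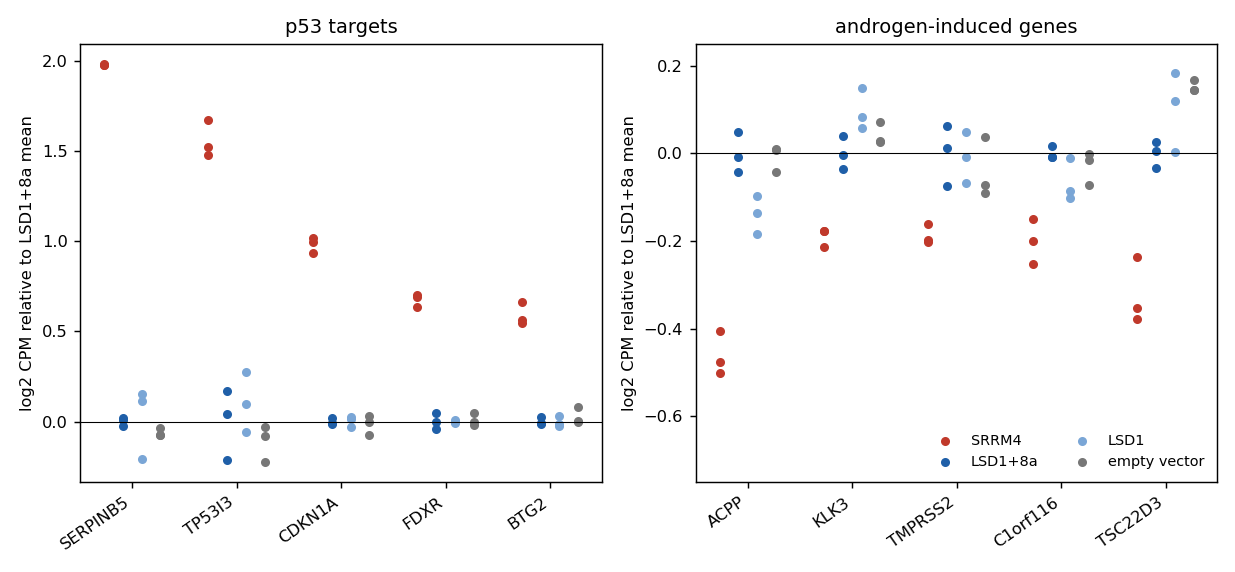
Level of 5 p53 targets (left) and of 5 androgen-induced genes (right) in each library, as log2 CPM relative to the mean of the LSD1+8a libraries (y axis), with SRRM4, LSD1+8a, LSD1 and empty-vector libraries from left to right for each gene. The SRRM4 points lie above all others for the p53 targets and below all others for the right-hand genes.

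Of 26 measured NRF2 targets, the genes of the oxidative stress response, 10 were higher (38.5%, against 4.42% of all genes) and none lower, with a median of 0.11 (no member had an unadjusted p under 0.05 in the lower direction). The 10 became 6 without LSD1+8a library 2 and 3 with limma-trend on log2(TPM + 1). HMOX1, heme oxygenase, had 19.1, 18.6 and 19.5 CPM in SRRM4 cells and 6.96, 7.06 and 7.46 CPM in LSD1+8a cells, a 2.66-fold rise (SE 0.11 in log2, adjusted p = 1.58e-11). SQSTM1, an autophagy receptor, averaged 867.2 ± 13.1 CPM in SRRM4 and 698.4 ± 16.6 CPM in LSD1+8a cells (0.31), and MAFG, a small Maf partner of NRF2, 43.4 ± 1.53 and 34.6 ± 1.64 CPM (0.33). Of 25 heat shock chaperones 6 were higher (2 with limma-trend) and none lower, led by HSPB8 at 8.41, 9.65 and 7.69 CPM in SRRM4 cells against 5.24, 3.33 and 4.35 CPM in LSD1+8a cells (0.99, SE 0.16, adjusted p = 5.45e-05). BAG3, its partner in selective autophagy, rose by 0.28. The 6 higher chaperones were 24% of the 25 measured, against 4.42% higher among all genes. No chaperone had an unadjusted p under 0.05 in the lower direction.

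In the unfolded protein and ATF4 response 11 of 51 measured genes were lower (21.6%, against 3.17% of all genes). Higher were 2 (3.92%, against 4.42%), and the median was -0.04. Without SRRM4 library 2 the lower and higher counts were 6 and 1, and without LSD1+8a library 2 they were 9 and 1. With limma-trend on log2(TPM + 1) they were 4 and 1. The median was -0.03 without LSD1+8a library 1 and -0.07 without LSD1+8a library 3. TRIB3, a pseudokinase induced by ATF4, had 150.6, 145.9 and 158.7 CPM in SRRM4 cells and 193.7, 201.8 and 204.9 CPM in LSD1+8a cells (log2 -0.40, SE 0.04, adjusted p = 7.5e-08). ERN1, the endoplasmic reticulum stress sensor IRE1, averaged 54.3 ± 0.912 CPM in SRRM4 and 65.5 ± 1.14 CPM in LSD1+8a cells (-0.27). STC2, a secreted glycoprotein, fell by 0.22, and PSAT1, an enzyme of serine synthesis, by 0.18. SESN2, a sestrin that also stands in the p53 list, was higher at 109.6 ± 3.97 and 78.4 ± 2.82 CPM (0.48), and ATF3, given after its value was seen, rose by 0.36.

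Lipid synthesis genes were higher in 12 of 40 measured (30%, against 4.42% of all genes) and lower in 2 (5%, against 3.17%), with a median of 0.11. Their median was 0.17 without LSD1+8a library 1, where 17 were higher, and 0.06 without LSD1+8a library 3. The 12 became 5 with limma-trend on log2(TPM + 1), and the 2 lower became 1 without any single library but LSD1+8a library 2. FDFT1, squalene synthase, had 255.8, 269.4 and 252.3 CPM in SRRM4 cells and 215.4, 189.6 and 184.8 CPM in LSD1+8a cells (log2 0.40, SE 0.04, adjusted p = 2.38e-06). FASN, fatty acid synthase, averaged 2344 ± 29.7 CPM in SRRM4 and 1930 ± 143 CPM in LSD1+8a cells (0.28), and INSIG1, which holds back sterol synthesis, 80.9 ± 3.78 and 62.4 ± 3.50 CPM (0.37). ELOVL5, a fatty acid elongase, was lower, at 451.4 to 471.1 CPM in SRRM4 and 526.2 to 579.4 CPM in LSD1+8a cells (-0.23). Immediate early genes, which respond to growth signals, were higher in 8 of 26 and lower in none (1 had an unadjusted p under 0.05 in the lower direction), with a median of 0.14. The 8 (30.8%, against 4.42% of all genes) became 5 without SRRM4 library 3 or LSD1+8a library 2, and 4 with limma-trend. Among them ID3, an inhibitor of differentiation factors, had 20.1, 18.3 and 18.2 CPM in SRRM4 cells against 12.7, 8.96 and 8.94 CPM in LSD1+8a cells (0.88, SE 0.11, adjusted p = 7.43e-07). NR4A1 and JUNB rose by 0.36 and 0.34.

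Cell cycle genes gave few calls. Of 54 G2/M genes 3 were lower (5.56%) and none higher. Of 56 S phase genes 5 were lower (8.93%) and none higher, beside 3.17% lower among all genes. In the higher direction 1 of each list had an unadjusted p under 0.05. In the lower direction 15 G2/M and 8 S phase genes had one, against 1322 of all 13001 genes. The 3 lower G2/M genes were 1 without SRRM4 library 1 or LSD1+8a library 2, 5 without LSD1+8a library 1, 9 with upper-quartile factors, 1 in DESeq2 and 0 with limma-trend on log2(TPM + 1). The 5 lower S phase genes were 1 without SRRM4 library 1, 2 without SRRM4 library 3 or LSD1+8a library 1, 3 without LSD1+8a library 2 or 3, and 1 in DESeq2 or with limma-trend. TOP2A, the topoisomerase of mitosis, had 138.4, 130.1 and 146.0 CPM in SRRM4 cells and 151.9, 158.3 and 162.9 CPM in LSD1+8a cells (log2 -0.19, SE 0.04, adjusted p = 0.00213). FAM111A, a protease at replication forks, had 189.3, 178.0 and 182.6 CPM in SRRM4 cells and 214.1, 222.5 and 223.2 CPM in LSD1+8a cells (-0.26, SE 0.04, adjusted p = 0.000243). The other 6 calls were fragile: NUSAP1, CKAP2L, RRM2, CHAF1A, UNG and DTL each lost theirs when 1 of several libraries was left out. Without SRRM4 library 1, for example, they gave -0.13, -0.24, -0.12, -0.14, -0.16 and -0.17.

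**Figure D5:**
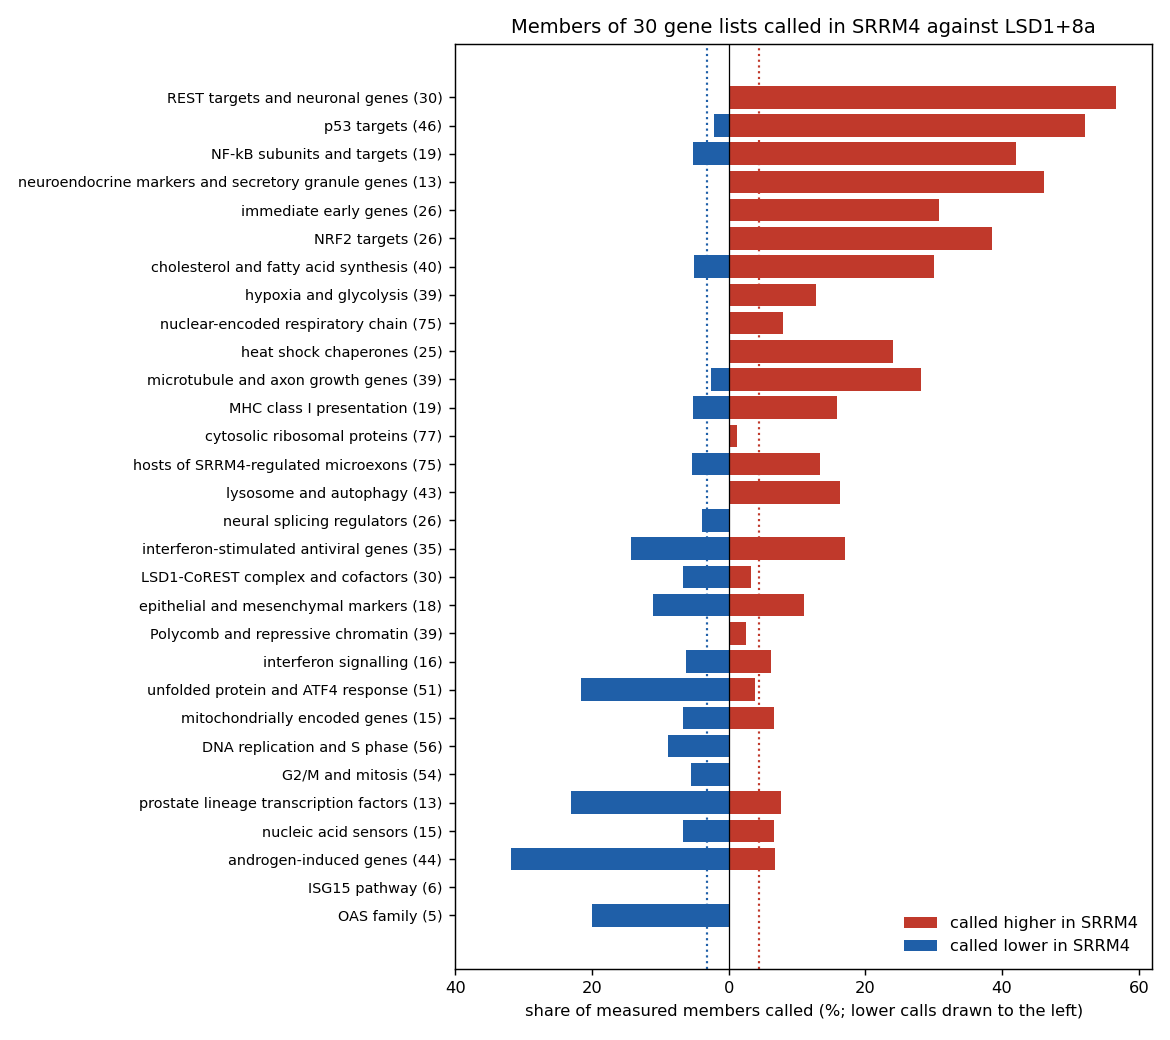
Share of the measured members of each of the 30 gene lists (number in brackets) called higher (red, to the right) or lower (blue, to the left) in SRRM4 than in LSD1+8a cells (x axis, percent). Dotted lines mark the shares among all genes, 4.42% higher and 3.17% lower, and the lists are ordered by median log2 fold change.

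In the remaining lists the called differences were few or small. A list with no call in a direction held 0 or 1 there under every alternative run, DESeq2 and limma-voom included. Nuclear-encoded respiratory chain genes were higher in 6 of 75 (8%, against 4.42% of all genes) and lower in none. UQCRFS1 of complex III led, at 163.4 ± 4.93 CPM in SRRM4 and 138.3 ± 8.33 CPM in LSD1+8a cells (log2 0.24). The 6 became 3 without SRRM4 library 1 or 2, 2 with limma-trend and 11 with GC and length trends removed. Of 77 cytosolic ribosomal protein genes only RPS2 was called (1.3%, against 4.42% higher among all genes), at 0.11. Without SRRM4 library 1 or 2 or LSD1+8a library 3 it was not called (0.08 to 0.11). Hypoxia and glycolysis genes were higher in 5 of 39 (12.8%, against 4.42% of all genes). Only 1 was higher without SRRM4 library 1 or 2 or LSD1+8a library 3, or with limma-trend. SLC16A3, GPI, PKM and PGAM1 lost their calls without each of those 3 libraries. Lysosome and autophagy genes were higher in 7 of 43 (16.3%, against 4.42% of all genes). The count was 2 without SRRM4 library 2 or LSD1+8a library 3, 4 without LSD1+8a library 2 or in DESeq2, and 3 with limma-trend. Among the 7 was ATP6V1B2, a subunit of the proton pump, at 126.5 ± 2.49 and 103.4 ± 1.22 CPM (0.29). None was lower in the respiratory chain, ribosomal, glycolysis or lysosome lists. In that direction 0, 0, 1 and 3 of their members had an unadjusted p under 0.05. In the higher direction 29 of 75, 6 of 77, 13 of 39 and 11 of 43 had one, against 1433 of all 13001 genes. In the Polycomb list KDM6B alone was called of 39 (2.56%, against 4.42% higher among all genes), at 0.11. That call ended whichever library was left out, at 0.09 to 0.13. EZH2, the Polycomb methyltransferase, averaged 33.6 ± 2.54 CPM in SRRM4 and 37.9 ± 1.83 CPM in LSD1+8a cells without a call (-0.17, adjusted p = 0.0997).

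Of 15 mitochondrially encoded genes 1 was higher and 1 lower (6.67% each, against 4.42% and 3.17% of all genes). MT-RNR1, a ribosomal RNA, was higher at 1928 ± 89.6 CPM in SRRM4 and 1609 ± 17.3 CPM in LSD1+8a cells (log2 0.26). MT-ND1, a complex I subunit, was lower at 3762 ± 152 and 4077 ± 147 CPM (-0.12), and lost its call without SRRM4 library 1 or 3 or LSD1+8a library 1 or 3, at -0.09 to -0.12. Without LSD1+8a library 2, in turn, 4 of the 15 were lower. Among 18 epithelial and mesenchymal markers 2 were higher and 2 lower (11.1% each, against 4.42% and 3.17% of all genes). KRT8 was higher (0.13) and ITGA6 lower (-0.24). These 2 lost their calls in both limma-trend fits on TPM, and KRT8 also without SRRM4 library 2 or LSD1+8a library 2. FN1, fibronectin, had 1141, 1092 and 1022 CPM in SRRM4 cells and 865.4, 846.5 and 851.2 CPM in LSD1+8a cells (0.35, SE 0.03, adjusted p = 3.67e-09). VIM, vimentin, had 40.5, 39.9 and 36.4 CPM in SRRM4 cells and 51.7, 53.6 and 50.02 CPM in LSD1+8a cells (-0.41, SE 0.06, adjusted p = 3.4e-05). Both are mesenchymal markers, and they moved in opposite directions without overlap.

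Outside the lists, the 15 largest rises also held PSD, an exchange factor for ARF6, at 14.1, 14.8 and 14.8 CPM in SRRM4 cells and 4.42, 4.203 and 3.53 CPM in LSD1+8a cells (log2 1.84, SE 0.14, adjusted p = 2.43e-12). AP3B2, the neuronal subunit of an adaptor complex, averaged 7.62 ± 1.68 CPM in SRRM4 and 2.83 ± 0.0536 CPM in LSD1+8a cells (1.43), TMEM198 9.21 ± 1.48 and 3.76 ± 0.748 CPM (1.29), and PGBD5, a transposase-derived gene of the brain, 5.29 ± 1.44 and 2.12 ± 0.451 CPM (1.31). Among the 15 largest falls after KDM1A, CLU, the secreted chaperone clusterin, had 17.3, 17.3 and 13.6 CPM in SRRM4 cells and 36.6, 25.4 and 24.2 CPM in LSD1+8a cells (-0.85, SE 0.17, adjusted p = 0.0141). Fitted on the 6 libraries alone, CLU kept that size with an adjusted p of 0.119. CLU stood 0.36 above the empty vector in SRRM4 cells and 1.201 above it in LSD1+8a cells, with adjusted p of 0.341 in SRRM4 and 0.0129 in LSD1+8a cells.

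FAM129A, a stress-linked regulator of translation, had 15.7, 14.5 and 17.0 CPM in SRRM4 cells and 21.5, 25.6 and 23.5 CPM in LSD1+8a cells (log2 -0.58, SE 0.08, adjusted p = 9.31e-06). S100P, a calcium-binding protein, had 8.07, 8.46 and 8.97 CPM in SRRM4 cells and 13.6, 11.9 and 12.1 CPM in LSD1+8a cells (-0.56, SE 0.12, adjusted p = 0.00275). The S100P call was lost in both limma-trend fits on TPM. The remaining falls were of weakly expressed genes at 1.77 to 7.22 CPM in SRRM4 cells, between -0.55 (DLGAP1-AS2, DHRS2) and -0.87 (POTEJ), with HRNR, SV2C, PART1, NEK3, SERHL2 and RPS9P1 among them. Each of these 9 lost its call when at least 1 library was left out, POTEJ without SRRM4 library 1 (-0.66) or LSD1+8a library 3 (-0.76). POTEJ and RPS9P1 have near-identical copies in the genome, so their counts are uncertain, and DLGAP1-AS2 is antisense to another gene, whose reads may not be told apart from its own.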

How the data were processed

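PolyA RNA of 12 LNCaP libraries was analysed, 3 for each of 4 transfections. Whole-number counts per gene were deposited by the authors in 1 table of 13001 genes, per the file headers, and were used as deposited. The authors also deposited TPM (a level per unit of transcript length) for the same genes, per the file headers. Per the submitters' processing notes the tools were STAR 2.5.3a and RSEM 1.2.31 and the build hg19, without saying which step made which table, and how the genes were filtered is not given in the sources used here. Every per-sample column was used.

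Counts were normalized with TMM factors and tested by quasi-likelihood F tests (robust) in edgeR 4.0.16 under R 4.3.3, with all 4 groups in 1 model. All 13001 genes were kept by filterByExpr, and a gene was called at an adjusted p under 0.05 (Benjamini-Hochberg, over all genes). A positive log2 fold change means higher in SRRM4. CPM is scaled to the TMM-normalized total of each library and given as mean ± SD over 3 libraries. The common biological coefficient of variation that edgeR estimated over all genes was 2.98%. It leaves out counting noise, and single genes can vary more between replicates. Replicates differed by more than counting noise (a chi-square of 1.44 to 2.88 per degree of freedom), so none was a repeat deposit. The procedure was tested on simulated data.

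The comparison and the 30 gene lists were chosen with earlier results of these data known. Named genes were KDM1A, the 15 largest rises and falls among called genes whose libraries did not overlap and whose log2 CPM averaged at least 0 (clone names left out), and up to 5 measured members of each list by smallest p; some of these genes and a sequence are not reported here. Lists are described by counts and medians, with no set test. Promoter sequences came from RefSeq (GRCh38.p14), and GC content and transcript length from a GENCODE annotation (GRCh38, 88.9% of genes matched by symbol). An exact permutation test of 3 against 3 libraries cannot go below p = 0.1 and was not used.

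Alternatives were relative log expression and upper-quartile factors, removal of KDM1A or of mitochondrial genes, no filter or a stricter one, DESeq2 1.42.0, limma-voom (limma 3.58.1), limma-trend on log2(TPM + 1) and log2(TPM + 0.1), a block for replicate, a fit of the 6 libraries alone, a 1.5-fold threshold test (glmTreat), thinning to equal totals, and leaving out each library. Removal of GC and length trends was added after the data were seen.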

Additional observations from a re-analysis of the deposited data

Results flagged for a closer look

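TPM sums to the same total over all transcripts of every library. The part of that total not taken by the listed genes was 14224 ± 325 TPM in SRRM4 libraries (13932 to 14574) and 9173 ± 243 TPM in LSD1+8a libraries (8916 to 9398; SD, n = 3 each). LSD1 libraries held 9459 ± 201 TPM and empty-vector libraries 8880 ± 73.8 TPM outside the listed genes. This was flagged as a signal outside the genes analysed that stood above the control libraries, and which transcripts make it up was not tested.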

How the results depend on the processing

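The 574 higher and 412 lower genes became 319 and 203 in DESeq2, 134 and 77 in limma-trend on log2(TPM + 1), 127 and 76 on log2(TPM + 0.1), and 23 and 1 when tested against a 1.5-fold change. Leaving out single libraries gave 341 to 590 higher and 220 to 416 lower genes: 402 and 251 without SRRM4 library 1, 341 and 220 without SRRM4 library 2, 432 and 277 without SRRM4 library 3, 371 and 241 without LSD1+8a library 2, and 379 and 230 without LSD1+8a library 3. Fewer samples enter those fits. Upper-quartile factors gave 492 and 497, and the remaining alternatives stayed within 1.5 times of both counts. Same-numbered SRRM4 and LSD1+8a libraries did not deviate together (correlations of -0.073, -0.094 and -0.085). These deviations are taken from the group means of few libraries, so they cannot show whether a number marks a shared culture. No library correlated best with its own number, which is no separate check because deviations within a group cancel out. With a replicate block 510 genes were higher and 361 lower. Of 123 called genes named by rule, 54 kept their call in every alternative but the 1.5-fold threshold, and 17 in that one too. Directions reversed for ERAP2 (-0.14 and -0.19 with TPM pseudocounts of 1 and 0.1), UBA7 (0.0215 and 0.0244 with them, and 0.0015 without SRRM4 library 3, in a range of -0.2183 to 0.0015 over single libraries left out) and CKAP2L (0.001 and 0.0013 with them), of which only CKAP2L was called; the cause was not tested. Genes outside the naming rule were not tried singly. With 10.88 M counts in the shallowest library, small changes of weakly expressed genes were not detectable.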
